A study of Macaca mulatta with 51 samples.

Results

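The insulin-like growth factor (IGF) family was followed in subcutaneous abdominal adipose tissue (AT) and gastrocnemius skeletal muscle (SM) of obese rhesus macaques treated with FGF21. The 9 genes described here were taken by symbol from the 16033 genes of the count table, and all 9 were present: the ligands IGF1 and IGF2, the receptor IGF1R, and the binding proteins IGFBP2, IGFBP3, IGFBP4, IGFBP5, IGFBP6 and IGFBP7. All 9 passed the filter on low counts in both tissues.

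Non-diabetic animals of both sexes, the females ovariectomized, were 11 to 22 years old and were kept on a diet rich in fat and sucrose throughout. Each received native human FGF21 by daily subcutaneous injection, at doses that were raised stepwise, for 12 weeks, and was then followed without treatment for 16 weeks. Punch biopsies were taken before the first dose (pre-treatment), at the end of dosing (post-treatment) and at the end of the untreated period (washout). AT libraries came from 10, 9 and 8 animals at these time points, and SM libraries from 6, 8 and 7. One animal was held at a lower final dose than the others. There was no parallel untreated group, so that FGF21, the accompanying weight loss and the passage of time cannot be told apart in any comparison of time points.

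IGF1 and IGF2 are secreted peptides that act through the IGF1 receptor, a receptor tyrosine kinase that signals through insulin receptor substrates, phosphatidylinositol 3-kinase and AKT. IGFBPs bind the ligands with high affinity, extend their life in the circulation and hold them near or away from the receptor, and several of them are cut by dedicated proteases that release the ligand. IGFBP7 is a more distant relative that binds IGFs weakly. In adipose tissue, IGF1 is made locally under growth hormone control, and progenitor and stromal cells are known sources of several IGFBPs.

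The 48 libraries held between 14455195 and 23940980 counts, and the members were covered by at least 49 counts in every library. Levels are given as CPM, a library's counts scaled to a common total, after TMM normalization within a tissue. The labelled tissues were borne out by their markers: the summed level of 4 adipocyte markers was 9439 to 32426 CPM in AT and 36.7 to 1174 CPM in SM, while that of 7 muscle fiber markers was 41499 to 220375 CPM in SM and 47.2 to 163 CPM in AT. One post-treatment AT library, from animal 20275, had the highest summed macrophage markers of its group, and one post-treatment SM library, from animal 21189, had the fewest fiber and the most fibroblast marker counts. Several results, but not all, are given with and without one or the other of these libraries.

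Before treatment, most of the family was higher in AT than in SM. Of the 9 genes, 7 were differentially expressed (DE, with an adjusted p under 0.05 and a change of more than 0.26 on the log2 scale) between the tissues and all 7 were higher in AT, where 77.8% of the 12322 genes tested in both tissues were DE and 41.2% were higher in AT. The median log2 difference between AT and SM was 2.01 for the 9 members and 0.09 for all genes. For this comparison both tissues were normalized together, so that the levels in this and the next 2 paragraphs are on a scale of their own. The difference was tested in 1 model over all 48 libraries with the animal as a term, and the counts of animals refer to the 6 that gave both biopsies.

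**Figure D1:**
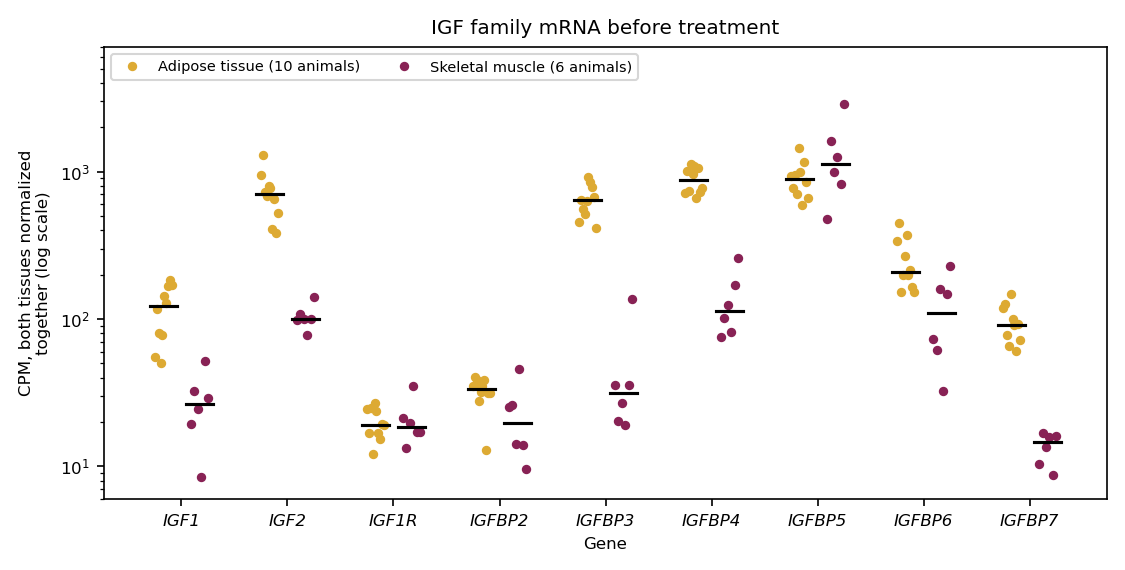
Levels of the 9 IGF family genes before treatment in AT (10 animals, yellow) and SM (6 animals, purple), as CPM on a log axis with both tissues normalized together. Each point is a library and each bar a median. IGF2, IGFBP3, IGFBP4 and IGFBP7 do not overlap between the tissues, whereas IGF1R (medians 19.2 and 18.4 CPM) and IGFBP5 (medians 888 and 1119 CPM) lie in the same range.

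IGFBP3, the main carrier of IGFs in blood, showed the widest gap. Its pre-treatment level was 416 CPM at the lowest, 637 at the median and 925 at the highest in AT, against 19.1, 31.3 and 136 CPM in SM. The tissues did not overlap and AT was higher in 6 of 6 animals, with a log2 difference of 3.94 (SE 0.47, adjusted p = 2.17e-09), or 15.3-fold. IGFBP7 ranged from 60.2 through a median of 91.4 to 147 CPM in AT and from 8.73 through 14.6 to 16.9 CPM in SM. It did not overlap either, and differed by 2.81 (SE 0.25, adjusted p = 1.53e-12). For IGFBP4, a ligand carrier that is cut by the protease PAPPA, the lowest, median and highest levels were 662, 872 and 1129.6 CPM in AT and 76.0, 113 and 259 CPM in SM. The groups were again apart, by 2.72 on the log2 scale (SE 0.52, adjusted p = 1.56e-05).

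Both ligands were also higher in AT. IGF2 spanned 383 to 1292 CPM with a median of 708 in AT and 77.4 to 140.1 CPM with a median of 99.96 in SM, which did not overlap and gave a log2 difference of 2.66 (SE 0.43, adjusted p = 8.28e-07). IGF1 spanned 49.9 to 184 CPM in AT and 8.53 to 52.0 CPM in SM. These ranges touched at their ends, AT was higher in 6 of 6 animals and the log2 difference was 2.01 (SE 0.48, adjusted p = 0.000281). IGFBP6, which prefers IGF2, was 1.11 higher in AT (SE 0.46, adjusted p = 0.0275) in 5 of 6 animals with overlapping ranges. Its call was lost with the identifier series in the model (adjusted p = 0.379) and without any one of 4 animals. IGFBP2 lay at the edge of the threshold, 0.55 higher (SE 0.26, adjusted p = 0.0498) in only 4 of 6 animals. An earlier form of the same edgeR test gave it an adjusted p of 0.0523, and without the post-treatment SM library of animal 21189 it was 0.074. IGF1R differed by 0.05 (SE 0.17, adjusted p = 0.791) and IGFBP5 by -0.46 (SE 0.29, adjusted p = 0.143). Scaling by library size alone gave IGF1R a difference of 0.78 that was DE and turned the sign of IGFBP5 to 0.28, so that no direction can be given for these 2 genes.

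In AT, the post-treatment biopsies were compared with those taken before treatment to ask which family members moved while FGF21 was given. IGFBP3 and IGFBP5 rose, and the other 7 were not DE. This is 2 of 9 genes against 15.5% of all 13367 genes tested in AT, or 6.98% counting only increases. The share of all genes that were DE depended on single animals, and was 7.47% without animal 20275, 9.9% without 21189 and 5.99% without 22130. The median log2 fold change was 0.20 for the 9 members and 0.03 for all genes.

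**Figure D2:**
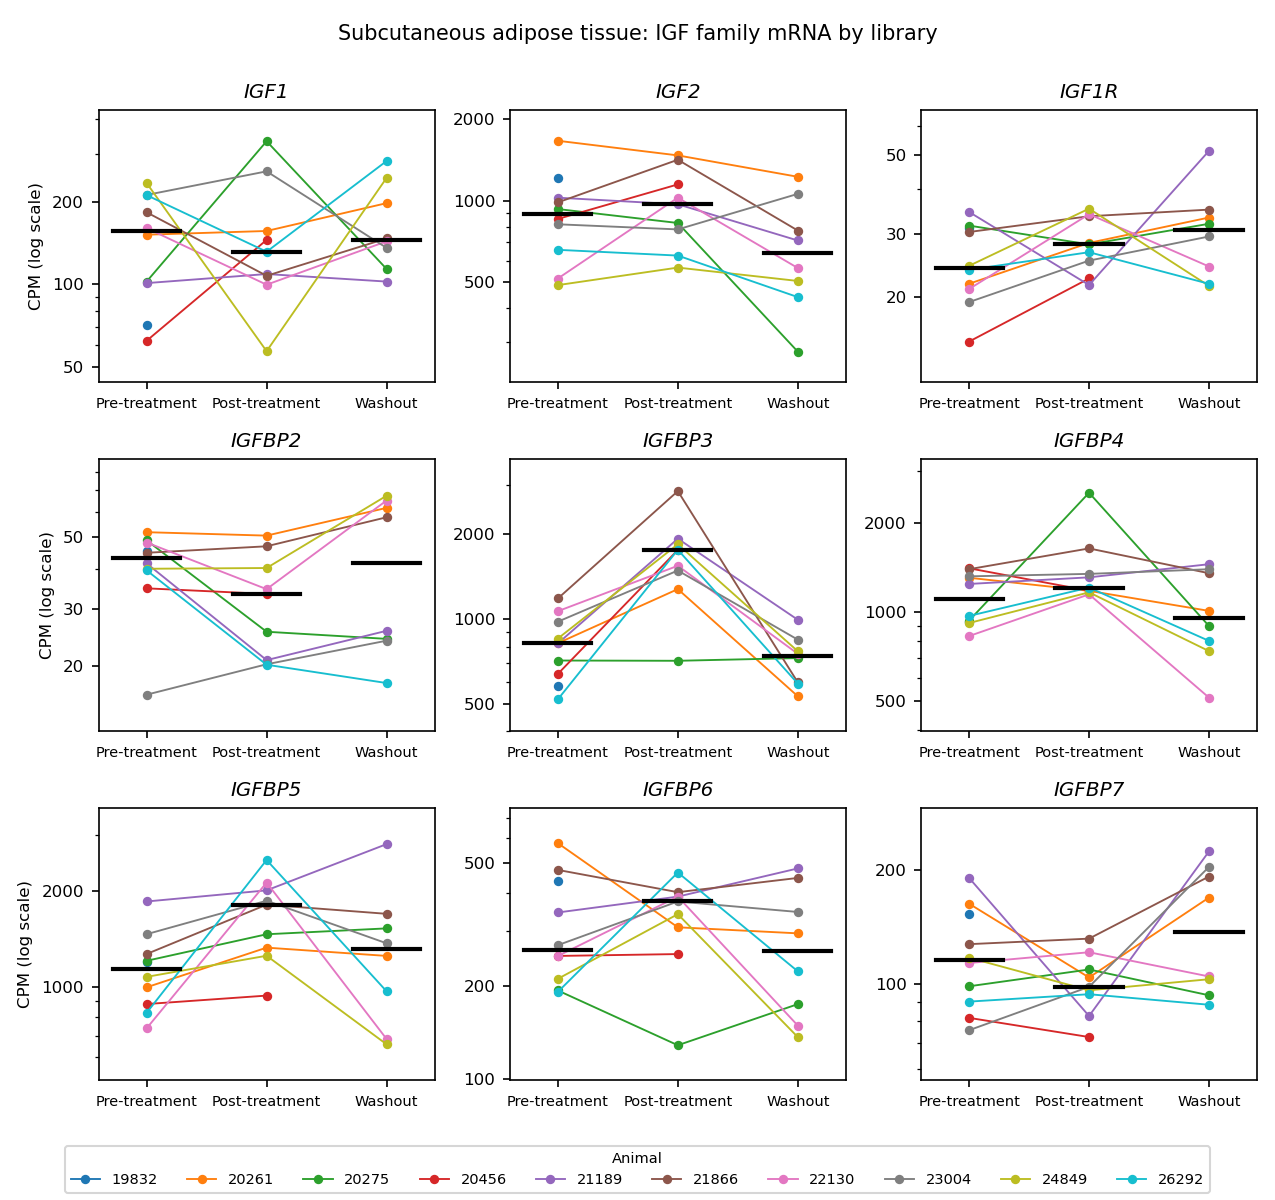
Levels of the 9 IGF family genes in the 27 AT libraries at pre-treatment, post-treatment and washout, as CPM on a log axis. Coloured lines join the libraries of an animal and black bars are medians. IGFBP3 rises and falls back in 7 of the 8 animals sampled at every time point, while animal 20275 stays flat.

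IGFBP3 ranged from 519.7 CPM through a median of 822 to 1185 CPM before treatment, and from 712 through 1762 to 2850.4 CPM after it. All post-treatment libraries but 1 lay above every pre-treatment library. The exception was animal 20275, whose level changed by -0.003 on the log2 scale, and the next lowest post-treatment library had 1279 CPM. IGFBP3 rose in 8 of 9 animals by a fitted 0.98 (SE 0.17, adjusted p = 0.00259), or 1.97-fold. Without the post-treatment library of animal 20275 the value was 1.09 (SE 0.15, adjusted p = 0.000604).

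IGFBP5, a binding protein that also attaches to extracellular matrix, lay between 739.6 and 1857 CPM with a median of 1134 before treatment, and between 938 and 2510.4 CPM with a median of 1815 after it. The groups overlapped, but the level was higher in 9 of 9 animals, by as little as 0.09 in animal 20456 and as much as 1.60 in animal 26292. The fitted increase was 0.60 (SE 0.19, adjusted p = 0.0407). This call was lost without the animal term (adjusted p = 0.0977), with the series of library identifiers in the model (0.0566), in a fit of these 2 time points alone (0.0618) and without any one of 6 animals (20261, 20275, 21866, 22130, 23004 or 26292). Among the 6 animals whose pre- and post-treatment libraries both came from the last identifier series, IGFBP5 rose on average by 0.52 and was higher in 6 of 6, and IGFBP3 was higher in 5 of 6.

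Neither ligand nor the receptor was DE post-treatment. IGF1 is the clearest case of animals moving in opposite directions: it ranged from 62.2 through 156 to 234 CPM before treatment and from 57.0 through 131 to 333 CPM after it. It was higher in 5 of 9 animals and lower in 4, with changes from -2.04 in animal 24849 to 1.70 in animal 20275 and a fitted change of 0.00 (SE 0.29, adjusted p = 0.996). At washout these 2 animals changed by 2.10 and -1.55. These values use the same post-treatment libraries and are not independent of the first changes. IGF2 had medians of 893 and 969.6 CPM, a change of 0.17 (SE 0.17, adjusted p = 0.502). IGF1R had medians of 24.2 and 28.1 CPM and was higher in 7 of 9 animals, and its fitted change was 0.25 (SE 0.14, adjusted p = 0.226).

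Among the remaining binding proteins, IGFBP2, whose gene is next to that of IGFBP5 in the rhesus RefSeq annotation, had the lowest value, -0.38 (SE 0.17, adjusted p = 0.13), with 6 of 9 animals lower. IGFBP4 was at 0.30 (SE 0.16, adjusted p = 0.184), IGFBP6 at 0.20 (SE 0.20, adjusted p = 0.525) and IGFBP7 at -0.17 (SE 0.16, adjusted p = 0.502). The post-treatment library of animal 20275 stood at an end of its group for several members. It had the highest IGF1 and IGFBP4 and the lowest IGFBP3 and IGFBP6 of the 9, along with summed macrophage markers of 3501 CPM against a group median of 1935. Without it IGF1 changed by -0.25 and IGFBP4 by 0.15, and neither was DE.

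From post-treatment to washout in AT, 3 of 9 members fell and none rose by the threshold, where 35.4% of all genes were DE and 17.8% were lower. The post-treatment libraries enter both this comparison and the previous one, so that the values of the 2 are not independent. The median log2 fold change was -0.39 for the 9 members and -0.002 for all genes.

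**Figure D3:**
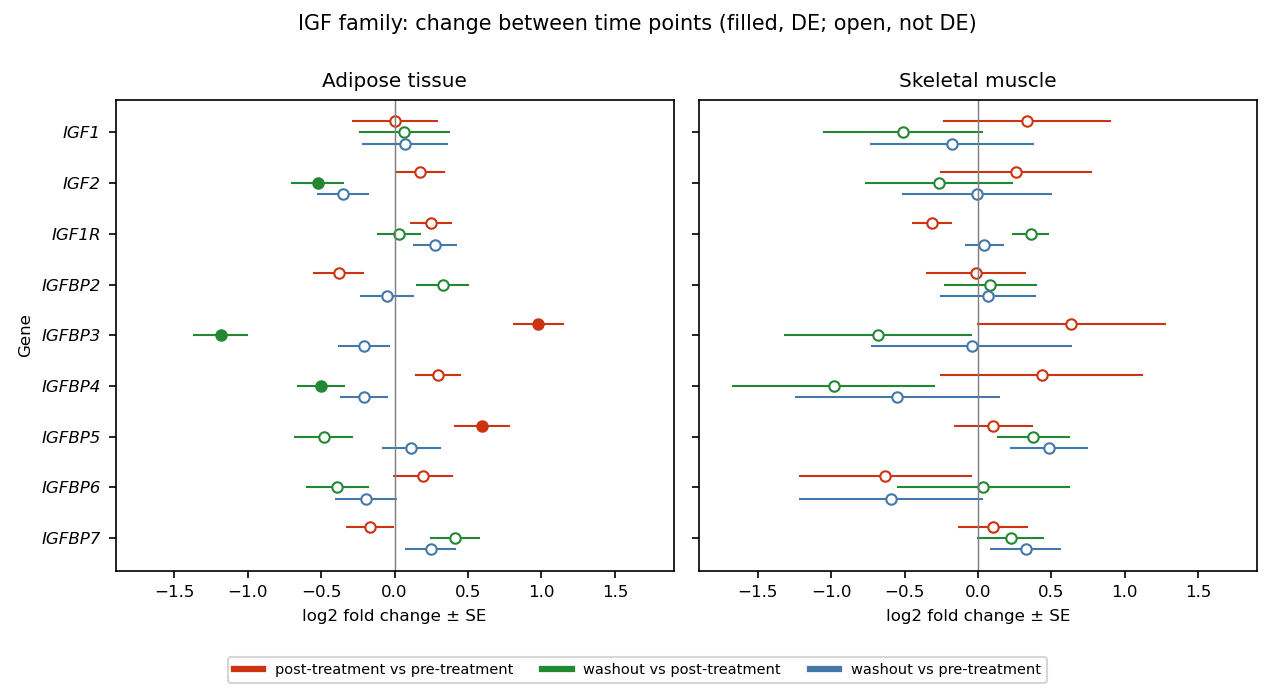
Fitted log2 fold change of each IGF family gene in AT (left) and SM (right) for the 3 comparisons of time points, with bars of 1 SE. Filled points are DE. IGFBP3 (0.98 and -1.19) and IGFBP5 (0.60) in AT stand with IGF2 (-0.52) and IGFBP4 (-0.50) at washout as the only filled points, and SM has wider bars and none filled.

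IGFBP3 at washout ranged from 533 through a median of 741 to 996 CPM. Again the post-treatment library of animal 20275 was the only one of its group that fell within the range of the other time point. IGFBP3 was lower in 7 of 8 animals, with a fitted change of -1.19 (SE 0.18, adjusted p = 0.000105). In the 3 animals whose libraries of both time points came from the last identifier series it was lower in 3 of 3, by a mean of -1.49.

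IGF2 went from 565 to 1471 CPM with a median of 969.6 post-treatment to 276 to 1226 CPM with a median of 638 at washout. The ranges overlapped widely and 7 of 8 animals were lower, by a fitted -0.52 (SE 0.18, adjusted p = 0.029). IGFBP4 went from 1149.7 to 2532 CPM with a median of 1212 to 515 to 1453 CPM with a median of 955. It also overlapped, and was lower in 6 of 8 animals by a fitted -0.50 (SE 0.16, adjusted p = 0.0207). Both calls were lost without the animal term, with the identifier series in the model and in a fit of the 2 time points alone, where adjusted p lay between 0.0606 and 0.151. The IGF2 call was also lost with scaling by library size alone (adjusted p = 0.0576) and without animal 21189, 21866, 22130 or 26292, and the IGFBP4 call without animal 22130 or 24849. In the 3 animals with both libraries from the last identifier series, IGF2 was lower in 3 of 3, by a mean of -0.53. IGFBP4 was lower in 2 of these 3, and its mean change was only -0.12.

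IGFBP5 (-0.48, SE 0.20, adjusted p = 0.0648) and IGFBP7 (0.41, SE 0.17, adjusted p = 0.0683) lay just outside the threshold at washout, and both were DE with voomWithQualityWeights and with DESeq2. IGFBP5 was also DE without animal 21189 (-0.63, adjusted p = 0.0286). In the 3 animals with both libraries from the last identifier series, however, its mean change was 0.10, with 2 of 3 lower. That of IGFBP7 was 0.89, with 3 of 3 higher. IGFBP7 was also DE with library size alone (0.48, adjusted p = 0.0439), without the animal term (0.54, adjusted p = 0.0393), with the identifier series in the model (0.61, adjusted p = 0.00403), without animal 20275 or 22130, and without the post-treatment library of 20275 (0.47, adjusted p = 0.046). Its highest washout levels, 223 and 203 CPM, were in animals 21189 and 23004, against a group median of 137. IGF1 (0.07), IGF1R (0.03), IGFBP2 (0.33) and IGFBP6 (-0.39) were not DE.

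Washout was then compared with pre-treatment to see whether the family had returned to its starting levels in AT. None of the 9 members was DE, with 0 at an unadjusted p under 0.05 in edgeR and 0 DE with voomWithQualityWeights or DESeq2, where 20.5% of all genes were DE. The log2 fold changes ran from -0.35 for IGF2 (SE 0.18, adjusted p = 0.177) to 0.27 for IGF1R (SE 0.15, adjusted p = 0.201). IGFBP3 stood at -0.21 (SE 0.18) and IGFBP5 at 0.11 (SE 0.20). Of the 8 animals sampled at every time point, the level went up and then down in 7 for IGFBP3, in 6 for IGFBP5 and in 5 for IGFBP4, and in 0 for IGFBP2.

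Markers of other cells moved in AT over the same time points. The summed level of 8 progenitor and fibroblast markers had medians of 19153, 28164 and 17384 CPM at pre-treatment, post-treatment and washout. Its ranges overlapped at 12989.7 to 29420.3, 17037 to 40561 and 10589.6 to 35501 CPM, and 2 of the 8 markers were DE and higher post-treatment. The summed level of 8 macrophage markers had medians of 1136, 1935 and 541 CPM, with 0 of 8 DE post-treatment and 7 of 8 lower at washout. The summed level of 4 pericyte and smooth muscle markers had medians of 582, 531 and 958 CPM, with ACTA2 DE and higher from post-treatment to washout. Its highest washout value, 2520 CPM, was in animal 21189, which also had the highest IGFBP7. Post-treatment, 2 of 4 adipocyte markers, LEP and PLIN1, were DE and lower, while ADIPOQ and FABP4 were not DE. CD8A, 1 of 3 T cell markers, was DE and higher. From post-treatment to washout 3 of 8 fibroblast markers and CD8A were DE and lower. LEP, CDH5 of 4 endothelial markers, and ALAS2 and HBB of 3 erythroid genes were DE and higher at washout. Of all genes, 6.98% were higher and 8.49% lower post-treatment, and 17.6% were higher and 17.8% lower from post-treatment to washout. In bulk tissue, more cells of a type and more RNA per cell cannot be told apart.

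Over the 27 AT libraries, which share animals, log2 levels of IGFBP5 had a Pearson r of 0.75 with the summed fibroblast markers and -0.65 with the adipocyte markers. The same r with fibroblast markers was 0.66 for IGFBP4, 0.55 for IGFBP3 and 0.54 for IGFBP6. With adipocyte markers it was -0.58 for IGF1R and -0.56 for IGFBP7. IGFBP6, IGF1R and IGFBP7 were not DE between time points in AT. IGFBP4 also had an r of 0.57 with T cell and 0.54 with macrophage markers. IGFBP3 had one of 0.49 with T cell and 0.43 with muscle fiber markers. In AT the fiber sum rests mostly on TNNT3, with a pre-treatment median of 66.7 CPM, against 6.68 CPM for MYH1, the next highest. IGFBP7 and IGF1R had an r of 0.79 and 0.76 with the summed level of 4 pericyte and smooth muscle markers, and of 0.63 and 0.64 with endothelial markers. IGFBP2 had an r of -0.65 with the macrophage, 0.57 with the endothelial and -0.55 with the fibroblast markers. The fibroblast sum rests mostly on COL3A1, DCN and COL1A1, with pre-treatment medians of 6607, 5287 and 3471 CPM, against 86.6 CPM for PDGFRA. IGF1 had an r of -0.12, 0.06 and -0.10 with adipocyte, fibroblast and macrophage markers, and of -0.35, -0.29 and -0.29 with endothelial, pericyte and smooth muscle, and T cell markers. The part of these cells in the changes of the members was not tested.

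The genes most like the leading members over the AT libraries, among 12130 with a mean of at least 1 CPM, were found by Pearson r on log2 CPM and are a description only. For IGFBP3 they were SIAH2 (0.76), MFAP2 (0.74) and ABCG1 (0.73), and for IGFBP5 FAM109B (0.83), FKBP10 (0.81) and CREB3L1 (0.78). For IGF2 they were AEBP1 (0.73), PPDPF (0.71) and CEBPD (0.71). The best for IGF1, COPS8, SELENOF and METTL21A, reached 0.68, 0.68 and 0.67. By Spearman rho, 2 of the 3 for IGFBP3, 3 of 3 for IGFBP5, 1 of 3 for IGF2 and 1 of 3 for IGF1 were again among the first 3.

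The rest of the pathway was counted from a list of 38 genes, 32 of them tested in AT. ADAM28, IGF2BP1, IGFALS, IRS2, PAPPA and STAT5B were not tested there. Post-treatment, 8 of the 32 were DE, 2 higher and 6 lower, where 6.98% of all genes were higher and 8.49% lower, and the median log2 fold change of the list was -0.01. The count was 3 without animal 20275 or 22130, 5 without 21866, 4 without the post-treatment and 5 without the pre-treatment library of animal 20275, and up to 11 without another animal. On the growth hormone side, the feedback inhibitors of cytokine receptor signaling SOCS1 (0.90, SE 0.22, adjusted p = 0.0144) and SOCS2 (0.45, SE 0.12, adjusted p = 0.0171) rose, each in 8 of 9 animals, and the other 5 tested genes of that group were not DE. The SOCS2 call was lost without animal 20275 or 22130 and without the animal term, while that of SOCS1 held in all 21 alternatives in which it was tested. SOCS1 was at a low level, with a median of 1.53 CPM before and 2.28 CPM after treatment.

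Below the receptor, 4 of 13 genes were DE and all 4 fell. GRB14, an adaptor that inhibits the insulin receptor, went from a median of 5.98 to 2.88 CPM, with a fitted change of -0.93 (SE 0.20, adjusted p = 0.00812). PIK3R1, the regulatory subunit of phosphatidylinositol 3-kinase, fell by 0.57 (SE 0.19, adjusted p = 0.0451), and the kinases AKT1 and AKT2 fell by 0.33 and 0.47 in 9 of 9 animals each (adjusted p = 0.0252 and 0.0311). The AKT1 and AKT2 calls were lost without animal 20275 or 22130 and without the post-treatment library of 20275, that of AKT2 also without animal 21866 or the pre-treatment library of 20275, and that of PIK3R1 in 11 of 22 alternatives, these libraries of 20275 included. Among proteases and their inhibitors, STC2 went from a median of 29.8 to 17.2 CPM and was lower in 9 of 9 animals (log2 fold change -1.08, SE 0.21, adjusted p = 0.00418). STC2 blocks the IGFBP4 protease PAPPA, which was not among the genes tested in AT. HTRA1, a protease that cuts IGFBP5, fell by 0.45 (SE 0.14, adjusted p = 0.0346), also in 9 of 9. Its call was lost in 9 of 22 alternatives, among them those without either library of animal 20275, whereas the GRB14 and STC2 calls held in all 22.

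At washout the list had 11 of 32 genes DE against post-treatment, 3 higher and 8 lower, where 17.6% of all genes were higher and 17.8% lower. Against pre-treatment it had 8 of 32, 2 higher and 6 lower, where 12.5% of all genes were higher and 7.96% lower. Of those DE only in these comparisons, the metalloprotease ADAM12, which can cut IGFBP3 and IGFBP5, changed most, by -2.12 against post-treatment (SE 0.37, adjusted p = 0.0003). PAPPA2, a protease for IGFBP3 and IGFBP5, changed by -1.67 (SE 0.38, adjusted p = 0.00264), and IGF2BP3, which binds IGF2 mRNA, by -1.12 (SE 0.37, adjusted p = 0.0253), a call that was lost in 7 of 22 alternatives, including that without the post-treatment library of animal 20275. GRB10, an inhibitory adaptor of the insulin and IGF1 receptors, was higher than at pre-treatment by 1.01 (SE 0.13, adjusted p = 1.30e-05) in 8 of 8 animals. IGFBPL1 was lower than at pre-treatment by a fitted -0.89 (SE 0.31, adjusted p = 0.0475), and lost its call in 13 of 21 alternatives. The ADAM12, PAPPA2 and GRB10 calls given here held in all 22.

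In SM, the same comparisons asked whether the family moved in muscle, and no member was DE in any of them. Post-treatment against pre-treatment, 0 of 9 were DE with edgeR, voomWithQualityWeights or DESeq2, and 1 of 9 had an unadjusted p under 0.05 in edgeR, where 0% of the 12617 genes tested were DE. Washout against post-treatment gave 0 of 9 with each tool and 1 unadjusted (0.19% of all genes DE), and washout against pre-treatment 0 of 9 and 0 unadjusted (0.0634% of all genes DE). The gene with an unadjusted p under 0.05 was IGF1R each time. It had a median of 13.4 CPM before treatment, 12.2 after it and 13.7 at washout, and was lower post-treatment in 5 of 6 animals (-0.31, SE 0.14, adjusted p = 1) and higher at washout in 7 of 7 (0.36, SE 0.13, adjusted p = 0.187). None of the 30 pathway genes tested in SM was DE in any of the 3 comparisons, with 1, 3 and 2 at an unadjusted p under 0.05. With the identifier series in the model, 8 of them were DE at washout against post-treatment and 7 against pre-treatment, and so were 2650 and 1355 of all genes, in place of 24 and 8.

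**Figure D4:**
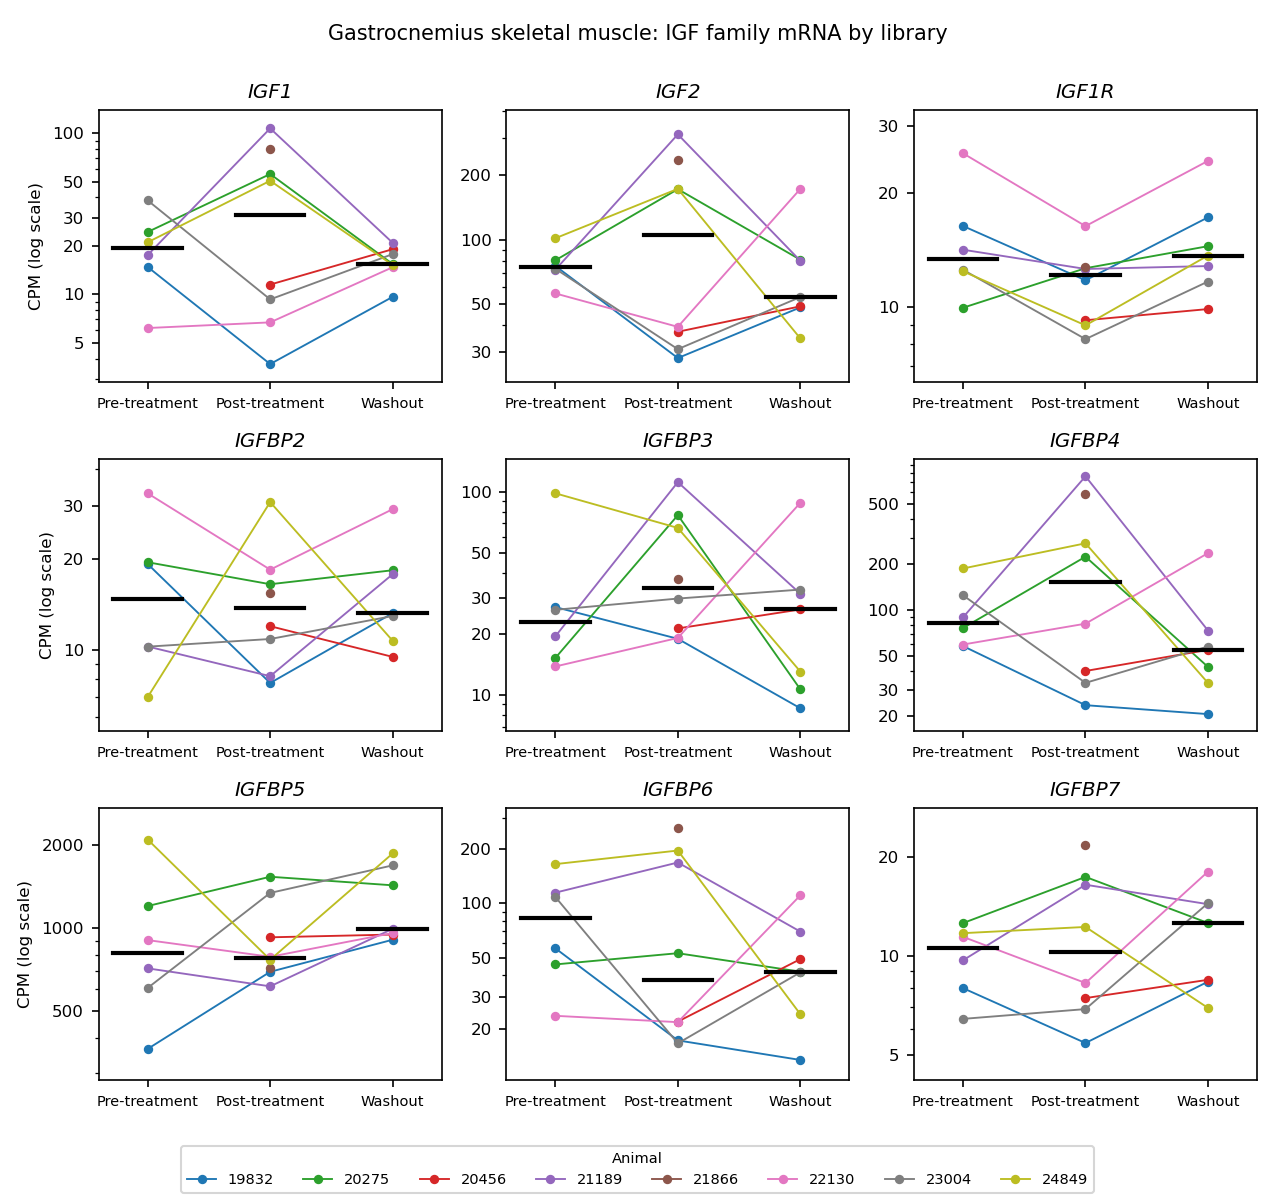
Levels of the 9 IGF family genes in the 21 SM libraries at pre-treatment, post-treatment and washout, as CPM on a log axis, with lines joining the libraries of an animal and black bars at the medians. On this axis the post-treatment libraries are spread widest for IGFBP4 (23.7 to 761 CPM), IGF1 (3.70 to 107 CPM), IGFBP6 (16.6 to 262 CPM) and IGF2 (27.98 to 311 CPM).

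The spread between muscle biopsies was wide for most members. IGFBP4 was at 58.0, 82.9 and 188 CPM (lowest, median and highest) before treatment, at 23.7, 153 and 761 CPM after it and at 20.7, 54.8 and 237 CPM at washout. The post-treatment group spanned the pre-treatment range and every washout library but the lowest. Changes within an animal from pre- to post-treatment ran from -1.91 in animal 23004 to 3.08 in animal 21189. The fitted change was 0.44 (SE 0.69, adjusted p = 1). IGF1 was at 6.19, 19.3 and 38.3 CPM before and 3.70, 31.1 and 107 CPM after treatment, with a fitted change of 0.33 (SE 0.57). IGF2 was at 56.1, 74.4 and 102 CPM before and 27.98, 106 and 311 CPM after, with a fitted change of 0.26 (SE 0.52).

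The library of animal 21189 was the highest of the 8 post-treatment SM libraries for IGF1, IGF2, IGFBP3 and IGFBP4, with summed fiber markers of 41499 CPM against a median of 149047 and summed fibroblast markers of 16954 CPM against a median of 2675. Without it, IGF1 changed by -0.12, IGF2 by -0.13 and IGFBP4 by -0.11 from pre- to post-treatment, so that no direction can be given for these genes in SM. The second library rich in fibroblast markers, at 14162 CPM, came from animal 21866. This animal has no other SM library, so that it adds no change between time points to the fits within SM. It still entered their normalization and dispersion. Without it, 28 in place of 24 genes were DE at washout against post-treatment, and 22 in place of 8 against pre-treatment. IGFBP3 was at 0.64 (SE 0.65) with all libraries and 0.34 without that of animal 21189, and IGFBP6 at -0.63 (SE 0.59) and -0.91.

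**Figure D5:**
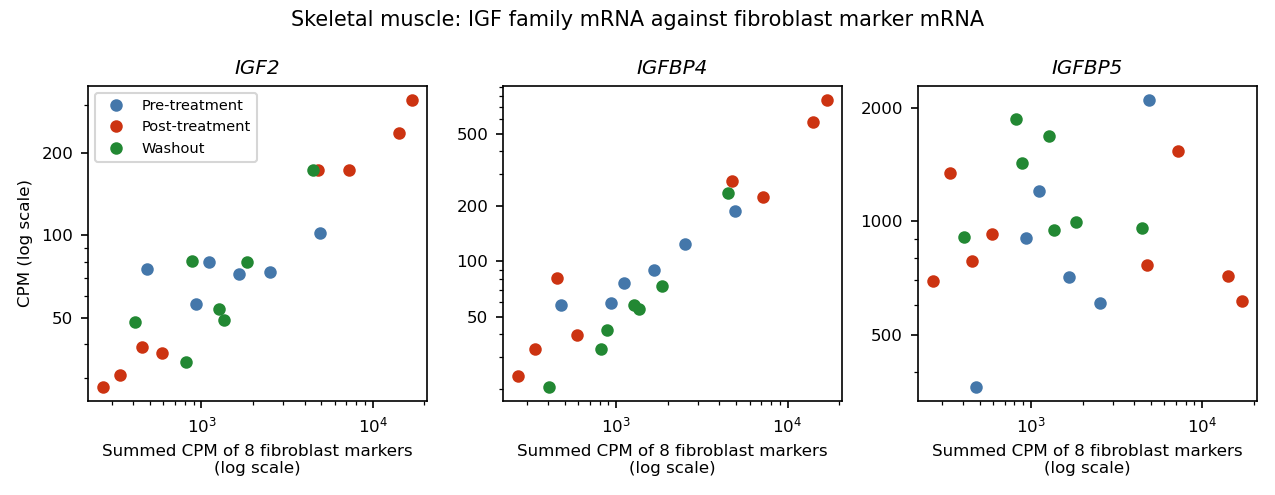
Levels of IGF2, IGFBP4 and IGFBP5 in the 21 SM libraries against the summed level of 8 progenitor and fibroblast markers, both in CPM on log axes, coloured by time point. IGF2 (r = 0.92) and IGFBP4 (r = 0.94) rise along with the markers over the 21 libraries, and IGFBP5 (r = 0.02) does not. Before treatment, IGF2 lies between 56.1 and 80.2 CPM in every library but that of animal 24849 (102 CPM).

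Over the 21 SM libraries, log2 levels of 4 members followed the summed fibroblast markers closely, with a Pearson r of 0.94 for IGFBP4, 0.92 for IGF2, 0.88 for IGF1 and 0.87 for IGFBP6. The r with summed fiber markers was -0.89, -0.86, -0.87 and -0.73 in the same order. Other cell types were not far behind: with macrophage markers the r was 0.77, 0.78, 0.64 and 0.825 in that order. With pericyte and smooth muscle markers it was 0.69, 0.69, 0.48 and 0.54, and 0.79 for IGFBP7. IGFBP7 and IGFBP3 had an r of 0.78 and 0.76 with the fibroblast markers. IGFBP5, IGFBP2 and IGF1R stood apart from these, with an r of 0.02, 0.04 and 0.00. The fibroblast sum gives most weight to abundant genes. In post-treatment SM, COL3A1, COL1A1 and DCN reached 8050, 5951 and 2946 CPM, and PDGFRA 16.7 CPM. From post-treatment to washout the SM median of PDGFRA rose from 5.24 to 8.34 CPM. The median of the sum fell from 2675 to 1274 CPM, and those of the other markers on the list fell too. The libraries share animals, and the part of tissue composition in the levels was not tested.

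IGFBP5 was at 365 to 2089.7 CPM before treatment in SM, at 615 to 1532 CPM after it and at 907 to 1861 CPM at washout, with medians of 809, 777 and 993 CPM. It was higher at washout than post-treatment in 6 of 7 animals (0.38, SE 0.25, adjusted p = 0.455) and than pre-treatment in 5 of 6 (0.48, SE 0.26, adjusted p = 0.441). With the identifier series in the model these values were 0.99 (adjusted p = 0.00901) and 0.87 (adjusted p = 0.0254), both DE. Only 2 animals had libraries from 1 series at both time points in either comparison, both of them higher at washout, and 6 of the 7 washout libraries but 3 of the 8 post-treatment and 2 of the 6 pre-treatment libraries came from the last series, so that series and time point are largely confounded in SM.

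Whether the members changed differently in AT and SM was tested as an interaction of tissue and time point. No member was DE in any of the 3 interactions, with 1, 1 and 0 at an unadjusted p under 0.05 in edgeR and 0 DE in each with DESeq2. Of all genes, 0.073% were DE for post- against pre-treatment, 22.5% for washout against post-treatment and 16.9% for washout against pre-treatment. The difference (AT minus SM) for IGFBP3 was 0.38 (SE 0.53, adjusted p = 0.865) post-treatment and -0.57 (SE 0.54, adjusted p = 0.483) at washout against post-treatment. For IGFBP5 it was 0.49 (SE 0.39, adjusted p = 0.728) and -0.85 (SE 0.39, adjusted p = 0.112). The IGFBP3 and IGFBP5 increases in AT are therefore not shown to differ from the changes in SM. These interactions carry the wide spread of the muscle biopsies, since a single dispersion was fitted per gene over both tissues. The model also held 1 term per animal for both tissues together, so that pairing within a tissue was only partly taken up. The post-treatment SM library of animal 21866 therefore enters these values. For IGFBP4 post-treatment the interaction was -0.74, where the separate fits gave 0.30 in AT and 0.44 in SM.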

How the data were processed

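Libraries were stranded, poly(A)-selected RNA libraries, sequenced as paired-end reads. STAR and the MacaM rhesus genome were used for alignment by the authors, who deposited raw counts per gene, without normalization, under symbols of the closest human homologs. The counting tool and its use of strand are not given in the sources used here, so that reads of overlapping or antisense genes cannot be separated. The INS-IGF2 entry had 0 counts in all 48 libraries. Of 51 labelled samples, 3 SM samples came without counts and are not analysed here. The weeks of treatment and washout and the ages come from the study's methods. Of 16103 entries, 70 that repeated a gene with identical counts were dropped.

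A gene was tested in a tissue where 10% of its libraries reached 0.5 CPM, with edgeR 4.0.16 in R 4.3.3: TMM normalization, robust quasi-likelihood tests, two-sided, on time point with the animal as a second term, in 1 model for each tissue, and Benjamini-Hochberg adjustment over all genes tested. Tissue differences and interactions came from 1 fit over both tissues, with 1 animal term shared by them. log2 CPM used a prior count of 2. The form of the quasi-likelihood method was chosen after the members' values had been seen under several forms, in order to follow an earlier processing of these counts. The package's default form changed only the tissue call of IGFBP2 among the members. The fit was tested on simulated data.

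Animal numbers in the labels pair the libraries. After removal of time point means, libraries of 1 animal had a median r over genes of 0.352 in AT (25 pairs) and 0.279 in SM (19 pairs), against -0.0354 and -0.0464 for different animals.

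The members, pathway list and marker lists were chosen with earlier results of these data known. All members were named in every comparison. Of the pathway list, genes DE in AT post- against pre-treatment or in SM were named, and the 5 largest changes among those DE only in AT washout comparisons. Marker lists had 4 of 7 adipocyte, 8 of 8 fibroblast, 8 of 8 macrophage, 4 of 6 pericyte and 7 of 7 fiber genes in the table. Alternatives were voomWithQualityWeights of limma 3.58.1, DESeq2 1.42.0 and its size factors, library size alone, no filter, a minimum of 10 counts per library, no animal term, identifier series as a term, 2 time points only, no fold change limit, a prior count of 0.5 and leaving out each animal or single libraries. The identifier series are 3 runs of library numbers and are not stated to be batches. Python 3.11.15 with NumPy 2.4.6, pandas 2.3.3 and matplotlib 3.10.9 was also used.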

Additional observations from a re-analysis of the deposited data

Results flagged for a closer look

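Within groups of 6 to 10 libraries, 4 of 54 combinations of gene, tissue and time point held a library far from the others on the log2 scale, where chance flags about 1 in 20. In AT before treatment, IGFBP2 was at 16.3 CPM in animal 23004, with the next library at 34.7 CPM. In AT post-treatment, animal 20275 had IGFBP4 at 2532 CPM against 1642 CPM in the next library, and IGFBP6 at 128 CPM against 253 CPM. In SM before treatment, IGFBP3 was at 98.5 CPM in animal 24849, with the next library at 27.1 CPM. That SM library also had the highest IGF2, IGFBP4, IGFBP5 and IGFBP6 of its group and the highest summed fibroblast markers, at 4904 CPM. The part of cell makeup in these values was not tested.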

How the results depend on the processing

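IGFBP3 in AT kept its calls under every alternative run, with log2 fold changes of 0.88 to 1.09 post-treatment and -1.34 to -1.06 at washout. None of the members that were DE changed sign: of 248 values recomputed for them, 206 stayed DE and 42 did not. All 138 changes of sign were in members that were not DE, and 17 values of such members became DE. The cause of these differences was not tested.

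The number of DE members in AT post-treatment went from 2 to 1 with no replicate block (no animal term), with the identifier series, with the 2 time points alone and without the pre-treatment library of animal 20275, and was 1 to 2 when each animal was left out. At AT washout against post-treatment it went from 3 to 5 with voomWithQualityWeights and with DESeq2, to 2 with no replicate block or with the identifier series, and to 1 with the 2 time points alone, and was 2 to 4 without each animal. With the identifier series it became 1 in both SM washout comparisons and in AT minus SM for washout against post-treatment, IGFBP5 each time (-1.28 for AT minus SM, adjusted p = 0.0154). Between the tissues before treatment it went from 7 to 6 with the earlier form of the edgeR test, DESeq2, its size factors or no replicate block, to 5 with the identifier series and to 8 with library size alone, and was 5 to 7 without each animal. IGFBP2 lost that call without any one of 8 animals and IGFBP6 without any one of 4 and with the identifier series (adjusted p = 0.379). The earlier form of the edgeR test and the removal of single post-treatment libraries were added after the data had been seen, and the main form of the test was itself settled on after the members' values were known. Of all genes, 801 to 2209 were DE in AT post-treatment when each animal was left out, against 2068, and 3 to 11 of the pathway list, against 8. The pathway count for AT washout against pre-treatment, 8, was 14 with voomWithQualityWeights or the 2 time points alone and 5 with library size alone. In SM, washout counts of all genes were 0 to 34 and 0 to 22 without each animal, and 359 and 170 with DESeq2. The 2770 genes DE in AT minus SM for washout against post-treatment became 1765 without animal 21189 and 4362 with the identifier series. All 54 group means of log2 CPM moved by less than 1 SD with a prior count of 0.5.

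Changes of sign, all on the log2 scale, were as follows. With voomWithQualityWeights, values turned to -0.18 for IGF1 in AT post against pre, -0.34 for IGF1 and -0.42 for IGF2 and -0.33 for IGFBP4 and -0.048 for IGFBP7 in SM post against pre, 0.056 for IGF1 and 0.25 for IGF2 in SM wash against post. With DESeq2, values turned to -0.0065 for IGF1 in AT post against pre, 0.0028 for IGFBP2 in SM post against pre, 0.027 for IGF2 in SM wash against pre, -0.007 for IGF2 in AT minus SM wash against post, -0.019 for IGF1R in AT against SM before treatment. With DESeq2's size factors, values turned to -0.0069 for IGF1 in AT post against pre, 0.0058 for IGFBP2 in SM post against pre, 0.028 for IGF2 in SM wash against pre, -0.0066 for IGF2 in AT minus SM wash against post, -0.019 for IGF1R in AT against SM before treatment. With at least 10 counts in every library, values turned to -0.0073 for IGF1 in AT post against pre. With a fit of the 2 time points alone, values turned to -0.092 for IGF1 in AT post against pre, -0.0102 for IGF1 in AT wash against pre. Without the pre-treatment library of animal 20275, values turned to -0.14 for IGF1 in AT post against pre, -0.028 for IGF1 and 0.053 for IGFBP2 in AT wash against pre. Without the post-treatment library of animal 20275, values turned to -0.25 for IGF1 in AT post against pre, -0.011 for IGF1R in AT wash against post. With the identifier series in the model, values turned to -0.13 for IGF1 in AT wash against post, -0.10 for IGF1 and 0.063 for IGFBP2 in AT wash against pre, -0.12 for IGFBP5 in SM post against pre, -0.40 for IGFBP2 and -0.73 for IGFBP6 in SM wash against post, -0.42 for IGFBP2 in SM wash against pre, 0.67 for IGFBP6 in AT minus SM wash against post, 0.30 for IGF2 and 0.21 for IGFBP2 and 0.20 for IGFBP7 in AT minus SM wash against pre. With library size alone, values turned to 0.049 for IGFBP2 in AT wash against pre, 0.056 for IGFBP2 in SM post against pre, -0.053 for IGFBP2 and -0.14 for IGFBP6 in SM wash against post, -0.0203 for IGF1R in SM wash against pre, -0.034 for IGFBP6 in AT minus SM post against pre, 0.32 for IGFBP6 in AT minus SM wash against post, 0.0025 for IGFBP2 in AT minus SM wash against pre, 0.28 for IGFBP5 in AT against SM before treatment. With no replicate block (no animal term), values turned to 0.062 for IGFBP2 in AT wash against pre, -0.088 for IGFBP5 and 0.15 for IGFBP6 in SM post against pre, -0.92 for IGFBP6 and -0.019 for IGFBP7 in SM wash against post, -0.023 for IGF1R and -0.046 for IGFBP2 in SM wash against pre, -0.10 for IGFBP6 in AT minus SM post against pre, 0.65 for IGFBP6 in AT minus SM wash against post, 0.059 for IGFBP2 in AT minus SM wash against pre, -0.045 for IGF1R in AT against SM before treatment. Without the post-treatment library of animal 21189, values turned to -0.12 for IGF1 and -0.13 for IGF2 and 0.11 for IGFBP2 and -0.11 for IGFBP4 in SM post against pre, 0.16 for IGF2 and -0.011 for IGFBP2 in SM wash against post, 0.026 for IGF2 and 0.047 for IGFBP3 in SM wash against pre. With no filter on low counts, values turned to 0.0013 for IGF2 in SM wash against pre. Without the post-treatment SM library of animal 21189, values turned to -0.29 for IGF2 in AT minus SM wash against post, -0.004 for IGF1R in AT against SM before treatment. When each animal was left out in turn, some values lay on both sides of 0. In AT post against pre the range was -0.26 to 0.20 for IGF1. In AT wash against post the range was -0.15 to 0.34 for IGF1, -0.14 to 0.13 for IGF1R. In AT wash against pre the range was -0.013 to 0.16 for IGF1, -0.17 to 0.084 for IGFBP2. In SM post against pre the range was -0.14 to 0.78 for IGF1, -0.11 to 0.57 for IGF2, -0.44 to 0.24 for IGFBP2, -0.10 to 0.84 for IGFBP4, -0.081 to 0.40 for IGFBP5. In SM wash against post the range was -0.71 to 0.12 for IGF2, -0.092 to 0.45 for IGFBP2, -0.50 to 0.50 for IGFBP6. In SM wash against pre the range was -0.49 to 0.12 for IGF1, -0.40 to 0.21 for IGF2, -0.008 to 0.12 for IGF1R, -0.023 to 0.23 for IGFBP2, -0.72 to 0.57 for IGFBP3. In AT minus SM post against pre the range was -0.44 to 0.0003 for IGFBP2, -0.071 to 0.83 for IGFBP3, -0.15 to 0.37 for IGFBP6. In AT minus SM wash against post the range was -0.31 to 0.55 for IGF2, -0.26 to 0.27 for IGFBP2, -1.11 to 0.0092 for IGFBP3, -0.45 to 0.63 for IGFBP6. In AT minus SM wash against pre the range was -0.34 to 0.026 for IGFBP2, -0.84 to 0.49 for IGFBP3, -0.40 to 0.82 for IGFBP4, -0.21 to 0.74 for IGFBP6. In AT against SM before treatment the range was -0.088 to 0.25 for IGF1R.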
